A study of Mus musculus with 32 samples.

Results

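The cytosolic ribosomal protein genes code for the proteins of the ribosomes that translate nuclear messages, and they were followed here in mouse presomitic mesoderm (PSM) cells, the tissue from which somites are cut off in the embryo. Members were the gene symbols of the Rps and Rpl series, with Rpsa, Rplp0, Rplp1 and Rplp2, at a mean of at least 5 CPM (counts scaled to library size) over all libraries. Of 83 matching symbols among the 21886 genes of the table, 79 passed, 31 of the small subunit and 48 of the large subunit. The rule uses symbols and the mean level alone. The cells had been made from epiblast stem cells carrying a luciferase reporter of Hes7, a repressor of the segmentation clock. Both experiments, Ex4 and Ex5, shared the line and the treatment: 10 µM SB431542 (a TGF-β receptor inhibitor), 250 nM LDN193189 (a BMP receptor inhibitor), 10 µM CHIR99021 (a GSK3 inhibitor) and 20 ng/ml bFGF, with CHIR99021 lowered to 1 µM after 30 h. Dishes were frozen one at a time, from 155 to 405 min in Ex4 and from 165 to 425 min in Ex5, which gave 16 RNA-seq libraries per experiment and 1 library per time. The series has no untreated group, so the comparisons are over time, with the clock phase and between the experiments.

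A ribosome holds nearly every ribosomal protein in equal number, and cells keep the messages of these proteins among their most abundant. Most of the messages begin with a C followed by a run of pyrimidines, the 5′ terminal oligopyrimidine (TOP) motif, through which mTORC1 and the RNA-binding protein LARP1 set how much of the message is translated and stored. Loss of single ribosomal proteins gives defects in particular tissues. In the mouse, Rpl38 is the gene of the Tail short mutation, with changed identity of vertebrae, and Rpl24 that of Belly spot and tail, while several others are mutated in human Diamond-Blackfan anaemia. RNA sequencing counts messages, not their translation.

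The stretches around the annotated transcription start are shown for members that stood apart in level or in direction, since this is where a TOP motif would lie. Each covers 45 bases, the 20 before the start and 25 from the start on, on the gene's own strand, from RefSeq on GRCm38.p6. Capitals mark a run of at least 8 C or T letters that begins with C. Rplp2, Rpl38 and Rps27 had the largest level differences between the experiments. Rps27l and Rpl13a were the only members below 0 in that comparison, and Rpl22l1 departed from the common movement of the other members.
Rplp2 (chr7:141447631-141447675, plus strand): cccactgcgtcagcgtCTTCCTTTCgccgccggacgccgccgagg
Rpl38 (chr11:114668560-114668604, plus strand): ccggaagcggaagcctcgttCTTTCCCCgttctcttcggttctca
Rps27 (chr3:90213624-90213668, minus strand): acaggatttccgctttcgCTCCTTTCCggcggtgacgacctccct
Rps27l (chr9:66946066-66946110, plus strand): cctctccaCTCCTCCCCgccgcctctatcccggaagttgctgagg
Rpl13a (chr7:45128721-45128765, minus strand): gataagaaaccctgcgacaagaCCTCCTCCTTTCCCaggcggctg
Rpl22l1 (chr3:28805488-28805532, plus strand): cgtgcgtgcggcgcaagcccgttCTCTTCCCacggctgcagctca

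On mm10, whose assembly is GRCm38, the annotated gene of Rpl38 (ENSMUSG00000057322.12) spans chromosome 11 from 114668524 to 114672331, that of Rps27 (ENSMUSG00000090733.6) chromosome 3 from 90212522 to 90213651, and that of Rps27l (ENSMUSG00000036781.13) chromosome 9 from 66946086 to 66949516 (GENCODE M21). By the RefSeq starts, the bases from the start on are the beginning of the 5′ untranslated region in these protein-coding genes. For Rpl38 the RefSeq start (114668580) lies inside the GENCODE gene, downstream of its first base. In Rpl38 the run began at the RefSeq start itself. In Rplp2 it began 4 bases before the start and in Rps27 2 bases before it, so that in both the annotated start lay inside the run. In Rps27l the run lay upstream, beginning 12 bases before the start, and in Rpl13a and Rpl22l1 it began 2 and 3 bases after it. Entries were present for 59 of the 79 members. On the sense strand, 46 of these 59 (78.0%) had such a run beginning within 50 bases of the start, against 26.4% of 9268 other tested genes. On the antisense strand the shares were 20.3% of the members and 30.2% of the other genes. A start that is C and is followed by at least 4 C or T letters was seen in 11 members (18.6%) and in 2.27% of the other genes. The letters CCGGAAG, the core bound by ETS factors, occurred on either strand of the 300-base promoter in 39.0% of members and 19.1% of other genes, and AAGATGG, the core of the YY1 motif, in 16.9% and 7.40%. These counts describe letters in the windows and say nothing of binding, and annotated starts can lie some bases or much farther from the start in use. In some members the RefSeq start used here lay far from the GENCODE gene start. Examples are Rps24 (24490678 against 24487125 on chromosome 14) and Rpl22 (152324436 against 152325742 on chromosome 4).

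Depth was 16.1 to 29.5 M counts per library. Marker genes of PSM (9 of 9 with counts, summed to 2803 to 3522 CPM in Ex4 and 3442 to 4094 CPM in Ex5) were high in every library. The summed epiblast markers were at 76.2 to 184 CPM in Ex4 and 45.8 to 134 CPM in Ex5, the neural markers at 36.9 to 47.8 and 22.4 to 29.0 CPM, and endoderm markers did not exceed 1.70 CPM. Vascular and blood markers (3 of 4 with counts, at most 3.55 CPM in sum) included the embryonic globin gene Hbb-bh1 with 0 reads in the 32 libraries. The last library of Ex4, at 405 min, stood apart with the highest share of mitochondrially encoded counts (0.682%, against a median of 0.406% in Ex4) and with the lowest share of ribosomal protein counts. The mean slope in Ex4 and the slope differences are given with and without it. The correlations of deviations include it and were not computed without it.

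The 79 messages took up a large part of the RNA in these cells. They held 7.46% to 8.92% of all counts in Ex4 (mean 8.33% ± 0.338, SD, n = 16) and 8.32% to 9.80% in Ex5 (mean 9.17% ± 0.428, SD, n = 16). The ranges of the experiments overlapped between 8.32% and 8.92%. Of the 100 most abundant genes of the table, 40 were members. These shares are of polyadenylated RNA, so a lower share can also mean that other messages were more abundant, and in a bulk sample fewer cells of a type and less RNA per cell cannot be told apart.

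**Figure D1:**
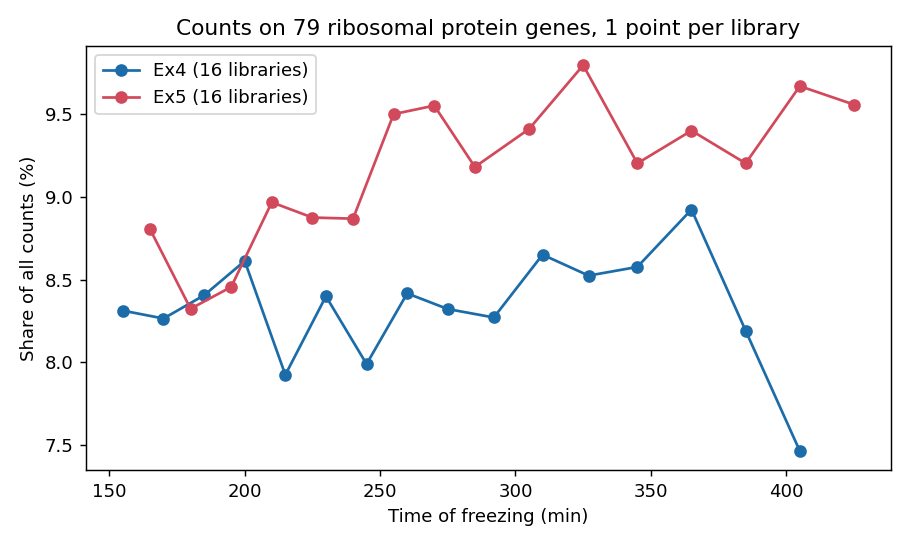
Share of all counts in a library that fell on the 79 ribosomal protein genes (percent, vertical axis, which does not begin at 0) against the time of freezing (min), with 1 point per library and 1 line per experiment (Ex4 blue, Ex5 red, 16 libraries each). The Ex4 libraries lie between 7.46% and 8.92%, with the lowest at 405 min, and the Ex5 libraries between 8.32% and 9.80%.

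Levels differed widely between members. Per kilobase of annotated transcript, Rpl34 was highest at 4136 CPM per kb, followed by the stalk protein gene Rplp1 at 3807, Rps12 at 3635, Rps18 at 2880 and Rps15 at 2726 CPM per kb. At the low end were Rpl13a at 92.6, Rps15a at 170.2, Rpl7l1 at 177, Rpl22 at 276 and Rpl29 at 284 CPM per kb. For Rps15a the transcript taken from the annotation was 5130 nt long, against a median of 737 nt over the members, so its value per kilobase is uncertain. For Rpl13a, 35.4% of the exon bases lie on the same strand inside exons of other annotated genes, among them the protein-coding model Gm45713, and reads there may have been left uncounted. How reads with several matches were counted is not given in the sources used here, and ribosomal protein genes have many processed copies in the genome, so levels of single members are less certain than their differences between libraries.

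The lowest members by mean level were Rpl13a (96.9 CPM), Rpl22l1 (173 CPM) and Rpl29 (201 CPM). Just below the minimum was Rps10 at 4.84 CPM (3522 reads in 32 libraries), of whose exon bases 20.6% overlap the annotated readthrough gene RPS10-NUDT3. The tissue-restricted paralogs Rpl3l, Rpl10l and Rpl39l had 15, 1 and 0 reads in all. No member was near the minimum of 5 CPM, and all 79 passed the filter for testing (at least 1 CPM in at least 16 libraries).

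The first comparison asked whether these messages cycle with the segmentation clock. None of the 79 did by edgeR's quasi-likelihood test (adjusted p under 0.05 over 11772 genes, of which 1.32% were called), and none did with DESeq2. At an unadjusted p under 0.05 there were 5 of the 79 members (6.33%), Rpl36, Rpl12, Rpl41, Rps19 and Rplp2, against 13.0% of all tested genes. The largest amplitude was that of Rpl36, a large subunit protein, with a peak 1.138 times the trough (0.19 ± 0.051 SE on the log2 scale, edgeR quasi-likelihood adjusted p = 0.135). It passed the threshold with the length correction alone (adjusted p = 0.0317) and without the Ex5 library at 305 min (adjusted p = 0.0416), and no other member did in any setting run. Rpl41, which codes for a very short basic peptide, followed at 1.10 times (log2 0.14 ± 0.052 SE). The median peak-to-trough fold over the members was 1.03, against 1.05 over all tested genes. The test for a different rhythm in the experiments called 0 members and 0% of all genes with edgeR, and 0 members with DESeq2. At an unadjusted p under 0.05 that edgeR test held 7 members (8.86%), against 5.47% of all tested genes.

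The second comparison asked whether the messages changed over the hours sampled. Of the 79 members, 46 rose over time (mean of the slopes of both experiments, edgeR quasi-likelihood, adjusted p under 0.05), against 26.8% of all genes called rising, and 0 fell, against 26.6% of all genes. By subunit, 21 of 31 small subunit and 25 of 48 large subunit genes rose. The median slope was 0.044 log2 per 100 min over the members and -0.0016 over all genes, and 76 of the 79 slopes were above 0. The exceptions were Rps27l (-0.030), Rpl14 (-0.016) and Rps26 (-0.0059), none past the test. By the mean of both slopes the 2 tested epiblast markers fell, as did the 1 tested endoderm marker (1.06 CPM) and the 1 tested vascular marker (1.56 CPM). The last 2 were near the filter of 1 CPM, and the vascular marker had a slope of 0.075 log2 per 100 min in Ex4 and -0.59 in Ex5. Of 9 PSM markers 4 rose and 3 fell, and of 3 tested neural markers 1 rose and 1 fell. The part of these markers in the rise was not tested.

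Rpl13a, a large subunit protein also known for a role outside the ribosome in translational silencing, had the steepest rise, 0.095 ± 0.017 log2 per 100 min (SE, 32 libraries, edgeR adjusted p = 1.82e-05). It ranged from 91.9 through a median of 98.9 to 111 CPM in Ex4 and from 83.3 through 95.2 to 109 CPM in Ex5. Rpl36 (0.076), the small subunit genes Rps28 (0.070) and Rps9 (0.069), and Rpl36a (0.069), Rpl41 (0.069), Rpl10a (0.067) and Rpl23 (0.065) followed, all past the test.

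The rise was not equal in the experiments. Fitted alone, Ex4 had 3 members rising, Rpl10a and Rpl13a among them, against 17.0% of all genes, and 1 member falling, Rps27l (-0.092), against 14.8%. The median slope of the members was 0.016. Ex5 alone had 57 rising, against 23.1% of all genes, and 0 falling, against 23.8%, with a median slope of 0.076. The slopes of Rps28 (-0.0063) and Rpl35a (-0.015) were below 0 in Ex4 alone and did not pass the test there. Averaged over the 79 members, the slope was 0.0019 ± 0.023 log2 per 100 min (SE, n = 16) in Ex4 and 0.081 ± 0.018 (n = 16) in Ex5. Without the 405 min library the Ex4 slope was 0.034 ± 0.017 (n = 15). Scaling by total counts alone, without the TMM factors, left 25 members rising, against 21.2% of all genes, and 1 falling, Rps27l, against 32.9%.

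**Figure D2:**
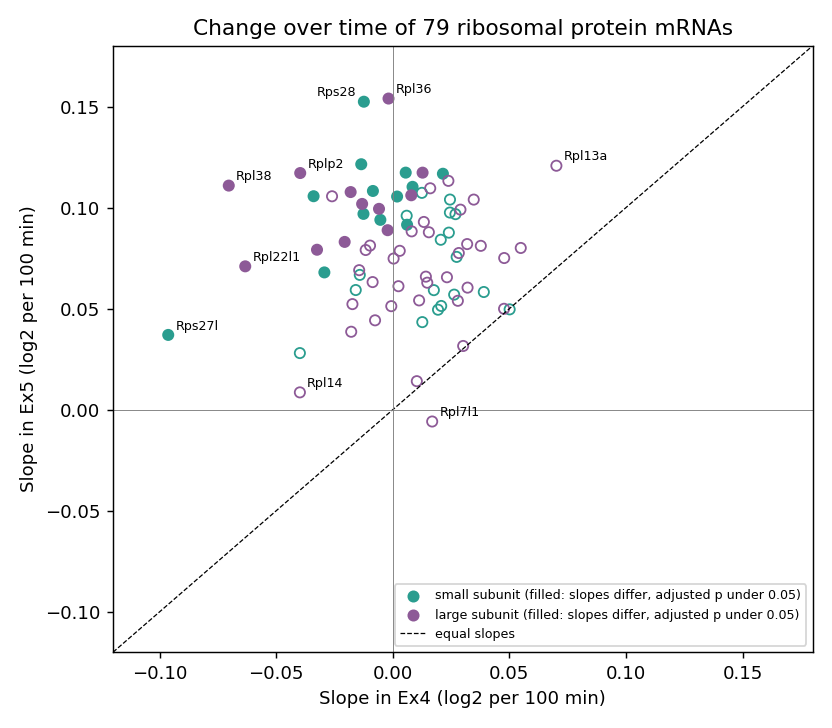
Slope of each of the 79 messages in Ex5 (vertical axis) against its slope in Ex4 (horizontal axis), both in log2 per 100 min, green for the small and purple for the large subunit, filled where the slopes differ at an adjusted p under 0.05. The dashed line marks equal slopes, and 78 of the 79 points lie above 0 on the vertical axis against 48 to the right of 0 on the horizontal axis.

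Tested directly, 25 of the 79 members (31.65%) had a more positive slope in Ex5 than in Ex4 (edgeR quasi-likelihood, adjusted p under 0.05), against 7.03% of all genes. A more negative slope was called for 0 members, against 9.06% of all genes. The members were not alone in this. Of 78 mitochondrial ribosomal protein genes, 20 (25.64%) had a more positive slope and 0 a more negative one, with a median difference of 0.076. A more positive slope was also called for 4 of 18 other TOP messages (22.22%) and 5 of 34 ribosome biogenesis genes (14.71%). Among the members, Rpl38, whose loss alters the axial skeleton, showed the largest difference, 0.18 ± 0.044 log2 per 100 min (SE, edgeR adjusted p = 0.00447). Its level lay between 403 and 609 CPM in Ex4, with a median of 557, the lowest at 405 min, and between 526 and 733 CPM in Ex5, with a median of 672. The first 3 libraries of Ex5 lay within the Ex4 range and the later ones above it. Rps28 (0.16), Rplp2 (0.16), Rpl36 (0.16), Rps21 (0.14), Rps16 (0.13), Rpl22l1 (0.13) and Rps27l (0.13) came next.

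These slope differences moved with transcript length and with several single libraries, most with the 405 min library of Ex4. After a correction of each library for GC content and length, 7 members kept a more positive slope in Ex5 (Rpl12, Rpl36, Rpl38, Rplp2, Rps16 and Rps28 among them), against 9.59% of all genes, and 2 had a more negative one, among them Rpl7l1, against 8.28%. The 7 of 79 are thus near the share over all genes. The median difference went from 0.074 to 0.013. With length alone as the correction, 4 kept the call (Rpl38 and Rps16 among them), against 6.57% of all genes. Rps20 was another, but the transcript taken for it from the annotation was 3706 nt long, so its correction is uncertain. Without the filter on low counts 15 members were called, against 3.59% of all genes. Without the 405 min library of Ex4, 9 members were called in place of 25. Leaving out the Ex5 library at 180 min gave 13 calls, the Ex4 library at 200 min 15, the Ex5 library at 195 min 15 and the Ex4 library at 385 min 16. In every one of the 32 such fits, 8 members kept the call, among them Rpl35a, Rpl38, Rpl9, Rplp2, Rps16, Rps21 and Rps27l. Rpl38 and Rps16 were among those that kept it under both corrections and in every such fit. The shares of all genes called with a library left out are not reported here. The counts of those fits therefore cannot be set against such a share.

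The third comparison set the level in Ex5 against that in Ex4 at 285 min. In it, 74 of the 79 members were higher in Ex5 (edgeR quasi-likelihood, adjusted p under 0.05), against 27.4% of all genes, and 2 were lower, against 27.7%. By subunit, 29 of 31 small and 45 of 48 large subunit genes were higher. The median difference was 0.18 log2, a 1.13-fold higher level, against -0.0021 over all genes. The count was 74 with DESeq2 and after the GC content and length correction, which brought the median to 0.15. Experiment and batch cannot be told apart. PSM markers moved with this difference, 7 of 9 being higher in Ex5 and 2, T and Cdx2, lower. Of the other markers that passed the filter, 2 of 2 epiblast, 2 of 3 neural and 1 of 1 vascular ones were lower in Ex5, the last being the VEGF receptor gene Kdr (-0.65 log2, adjusted p = 3.06e-06), and the 1 endoderm marker did not pass the test. The share of mitochondrially encoded counts was 0.439% ± 0.094 in Ex4 and 0.309% ± 0.041 in Ex5 (SD, n = 16 each). Their part in the result was not tested.

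**Figure D3:**
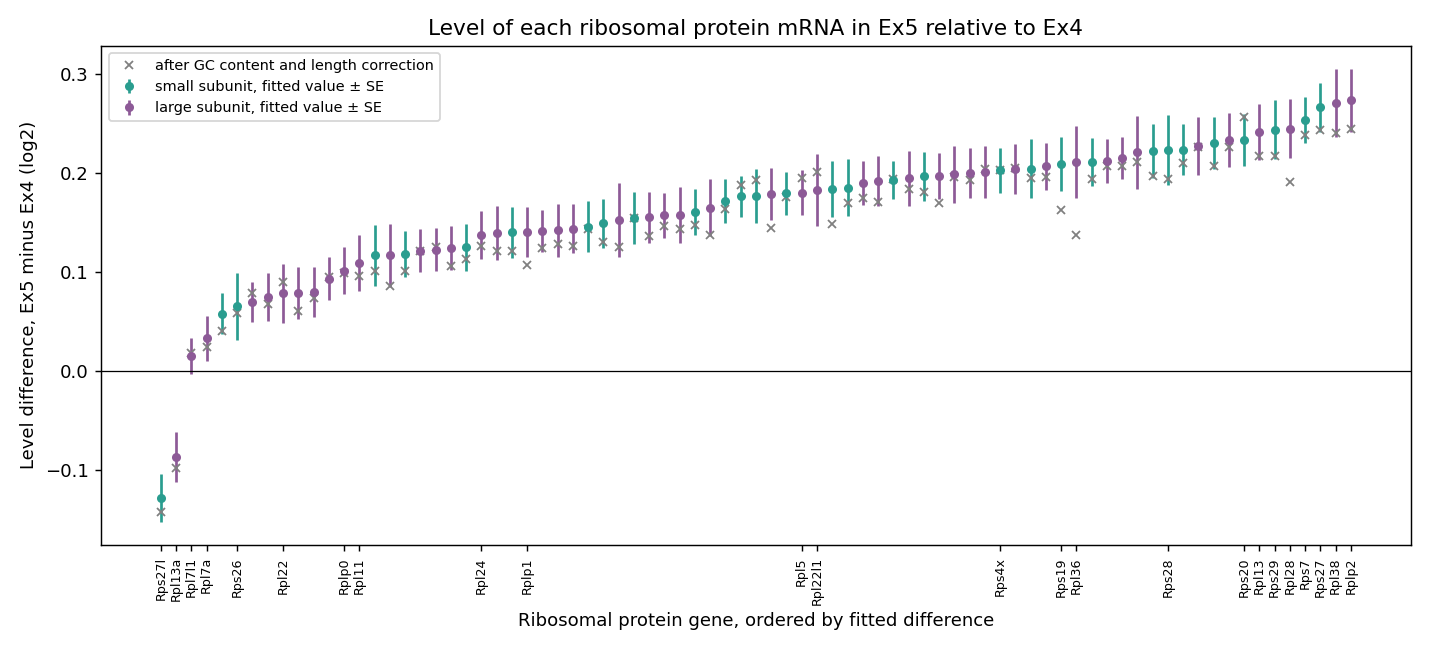
Level difference between the experiments for each ribosomal protein message (log2, Ex5 minus Ex4, fitted at 285 min), ordered from lowest to highest with some genes named, with the SE as bars, green for the small and purple for the large subunit, and grey crosses for the value after correction for GC content and length. Rps27l and Rpl13a lie below 0, and the other 77 points lie above it, up to 0.27 for Rplp2.

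The largest differences were in genes of both subunits. Rplp2 codes for a protein of the P stalk, the flexible arm that recruits translation factors to the ribosome. It lay between 829.9 and 1089.9 CPM in Ex4 (median 1000.2) and between 919.6 and 1310.3 CPM in Ex5 (median 1226), a difference of 0.27 ± 0.03 log2 (SE, adjusted p = 2.3e-09). The ranges overlapped, with the 165 to 195 min libraries of Ex5 inside the Ex4 range. The other stalk genes were higher by less, Rplp1 by 0.14 ± 0.03 and the scaffold Rplp0 by 0.10 ± 0.02. Rpl38 differed by 0.27 ± 0.03, Rps27 by 0.27 ± 0.02 and Rps7, a small subunit protein that binds Mdm2, by 0.25 ± 0.02. Rpl28 (0.24), Rps29 (0.24), Rpl13 (0.24) and Rps20 (0.23) completed the 8 largest.

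Only Rps4x, the X-linked small subunit protein gene, had ranges that did not overlap, against 1.67% of all genes that were higher in Ex5 without overlap. It lay between 1286 and 1534 CPM in Ex4 (median 1445) and between 1550 and 1819 CPM in Ex5 (median 1654), and differed by 0.20 ± 0.02 log2 (SE, adjusted p = 7.17e-10). For the other 78 members the ranges overlapped, so that none was lower in Ex5 without overlap, against 1.86% of all genes. The 1 of 79 members without overlap is thus near the share over all genes.

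Rpl38, Rpl24 and Rps7 were grouped as genes with axial or skeletal defects in mouse mutants, and all 3 were higher in Ex5. So were 93.67% of the 79 members and 27.41% of all genes. Rpl24 differed by 0.14 ± 0.02 log2 and ranged from 504 to 628 CPM in Ex4 (median 572) and from 572 to 693 CPM in Ex5 (median 631). Over time only Rps7 rose among the 3 (0.054 ± 0.016 log2 per 100 min, adjusted p = 0.00527). Of 9 genes mutated in Diamond-Blackfan anaemia, Rps10 among them, 8 were higher in Ex5 and 7 rose. Over time 58.23% of the 79 members rose, against 26.78% of all genes. The counts in level do not set the axial and anaemia genes apart from the other members. Rps19, the gene mutated most often, was at 1038 to 1344 CPM in Ex4 (median 1283) and at 1208 to 1575 CPM in Ex5 (median 1488). Rpl5 and Rpl11, which together bind the p53 regulator Mdm2, differed by 0.18 ± 0.02 and 0.11 ± 0.03 log2.

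A pair of members was lower in Ex5. Rps27l, a paralog of Rps27 known as a p53 target, differed by -0.13 ± 0.024 log2 (SE, edgeR adjusted p = 2.11e-05), and Rpl13a by -0.087 ± 0.025 (adjusted p = 0.00385). Another 3 did not pass the test: Rpl7l1 (0.015 ± 0.018), Rpl7a (0.033 ± 0.023) and Rps26 (0.065 ± 0.033).

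Rps27l and Rps27 code for near-identical proteins that occupy the same place in the small subunit, and their messages went opposite ways. Rps27 was at 561 to 704 CPM in Ex4 (median 655) and at 688 to 881 CPM in Ex5 (median 803), while Rps27l was at 240 to 307 CPM in Ex4 (median 287) and at 236 to 286 CPM in Ex5 (median 255). The ratio of Rps27l to Rps27, which no scaling of the libraries can change, ranged from -1.41 to -1.01 log2 in Ex4 and from -1.77 to -1.48 in Ex5, so the groups did not overlap. The mean difference was -0.41 log2 (-1.20 ± 0.10 in Ex4 and -1.61 ± 0.08 in Ex5, SD, n = 16 each, 2-sided permutation test with 100000 resamples, p = 2e-05, the smallest they can give, 6e-05 after adjustment over 3 paralog pairs). That test treats the libraries of a course as replicates, although they lie at successive times. The difference was -0.42 to -0.40 with each library left out.

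The other paralog pairs differed less. The ratio of Rpl7l1, a paralog with a place in ribosome assembly, to Rpl7 was -2.80 ± 0.05 log2 in Ex4 and -2.91 ± 0.07 in Ex5 (permutation test, adjusted p = 0.00015), with overlapping ranges. The ratio of Rpl22l1 to Rpl22, whose protein represses the Rpl22l1 message, was -1.76 ± 0.17 in Ex4 and -1.66 ± 0.11 in Ex5 (permutation test, adjusted p = 0.054). The Rpl22l1 message was highest in the first library of Ex4, at 209 CPM, against a median of 160 in that experiment. Reads shared between paralogs may have been counted for either or for none.

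**Figure D4:**
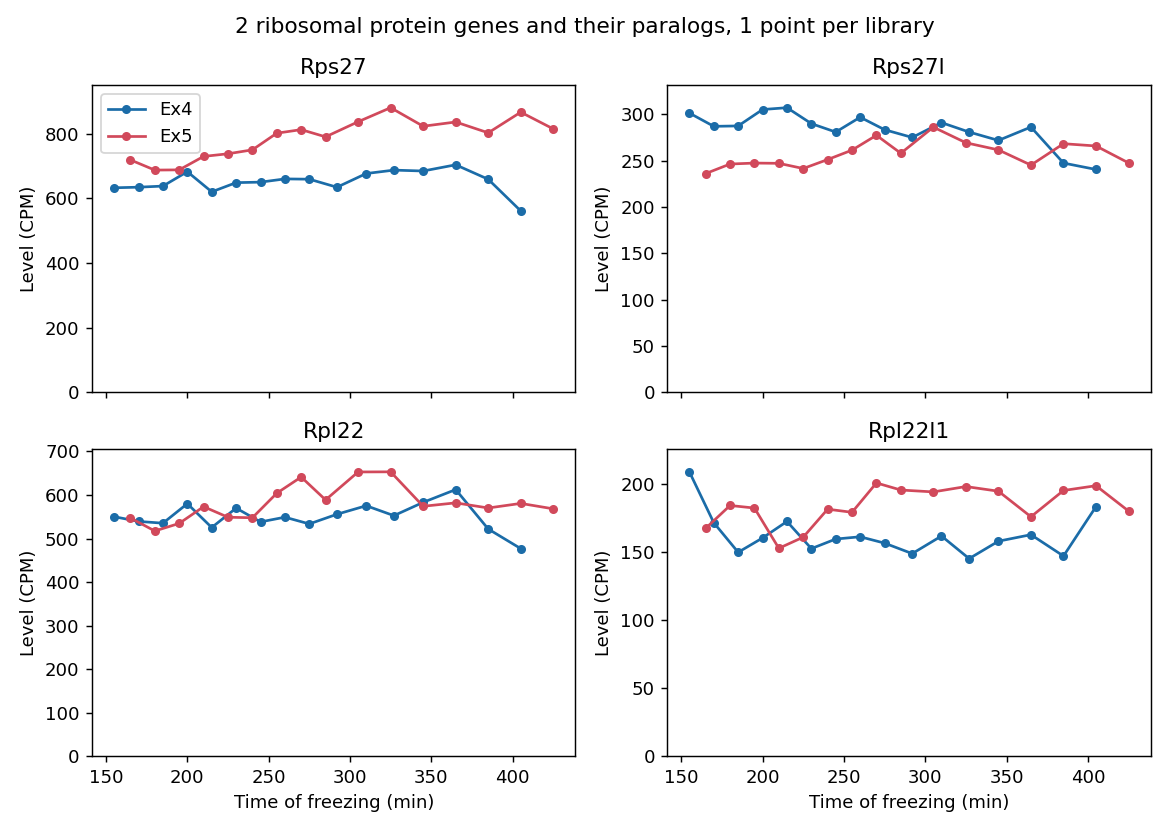
Level in CPM (vertical axes, from 0) of Rps27 and its paralog Rps27l, and of Rpl22 and its paralog Rpl22l1, against the time of freezing (min), with 1 point per library and 1 line per experiment (Ex4 blue, Ex5 red). Rps27 is higher in Ex5 (median 803 against 655 CPM) while Rps27l is lower there (median 255 against 287 CPM), and Rpl22l1 begins at its highest Ex4 value of 209 CPM.

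Beyond level and slope, the members moved up and down together from library to library. Deviations from each experiment's level and slope had a median pairwise correlation of 0.70 between members over the 32 libraries. The same median was 0.34 between the 78 mitochondrial ribosomal protein genes, 0.39 between 18 other messages with a TOP motif and 0.10 between 34 ribosome biogenesis genes. These values share library and depth and are given as descriptions. The lists also differ in level and length. The median level was 970 CPM for the members and 53.5, 890 and 201 CPM for the other lists in the order given. Median lengths were 737 nt for the members and 1253, 1685 and 2935.5 nt for those lists. The part of level and length in the higher correlation of the members was not tested. The correlation of a member with the mean of the others had a median of 0.85. Rpl22l1 was alone below 0, at -0.19, and Rps15a (0.43), Rpl13a (0.45) and Rpl39 (0.48) were the next lowest. All of these correlations include the Ex4 library at 405 min, where the members deviated most, and were not computed without it.

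Single libraries showed this common movement. In the Ex4 library at 405 min the mean deviation of the members was -0.17 log2, and of the 79 only Rpl22l1 was above 0, at 0.25. In the Ex4 library at 365 min it was 0.12 and in the Ex5 library at 325 min 0.094, with all 79 above 0 in both. At 180 min in Ex5 it was -0.089, with 7 above 0. Both subunits shared it, with -0.18 for the small and -0.16 for the large subunit in the 405 min library of Ex4.

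Transcript length and mitochondrial RNA moved with these deviations. The 794 other genes with transcripts of at most 1000 nt deviated in the same direction as the members in 29 of 32 libraries, and the 468 genes of at least 8000 nt in the opposite direction in 29. In the 405 min library of Ex4 the short genes were at -0.097, the long genes at 0.12 and the 8 mitochondrially encoded genes at 0.64. Mitochondrially encoded genes deviated opposite to the members in 25 of 32 libraries. Over the 32 libraries, the members' mean deviation had a correlation of -0.68 with that of these genes and of 0.39 with that of depth. The members are short (median 737 nt). The part of length, of depth or of mitochondrial RNA in their common movement was not tested.

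**Figure D5:**
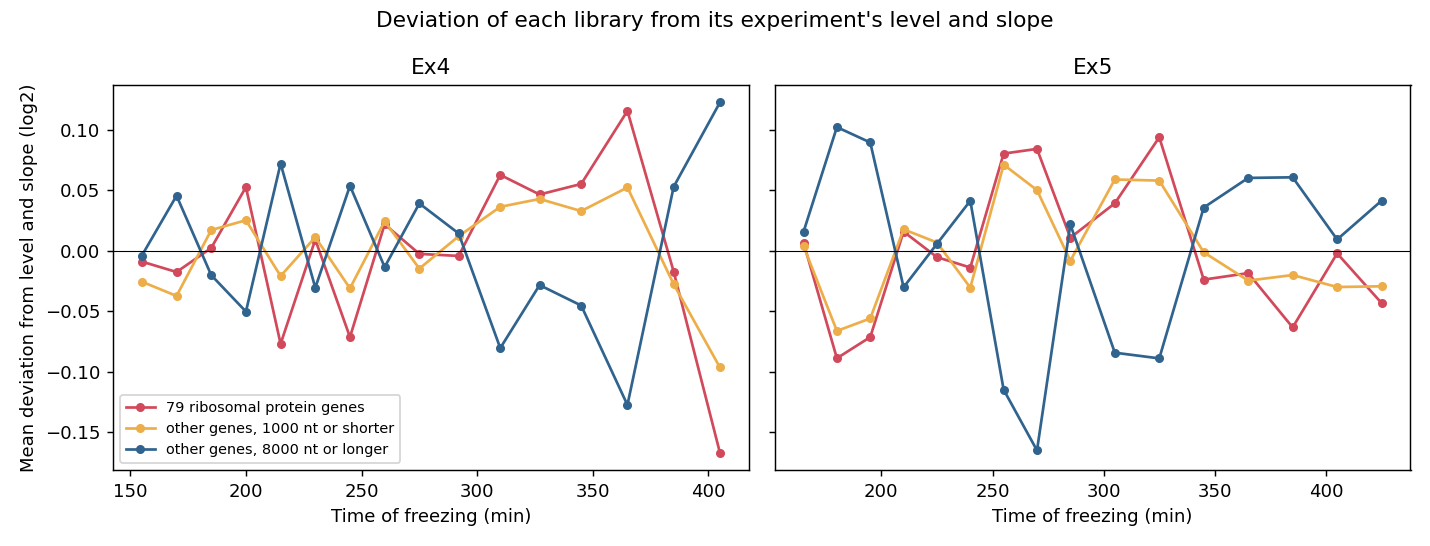
Mean deviation from each experiment's level and slope (log2, vertical axis) against the time of freezing (min), for Ex4 on the left and Ex5 on the right, with lines for the 79 ribosomal protein genes (red), 794 other genes of at most 1000 nt (yellow) and 468 genes of at least 8000 nt (blue). Red and yellow lie on the same side of 0 in 29 of the 32 libraries and red and blue on opposite sides in 29, and the members' lowest point is -0.17 at 405 min in Ex4.

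Among 9905 other genes with at least 5 CPM, those whose deviations followed the members' mean most closely over the 32 libraries were Psmb4, a proteasome subunit (r = 0.94), Atp5b, the catalytic subunit of the mitochondrial ATP synthase (0.93), Ddx39, an RNA helicase (0.93), and the proteasome subunits Psmc1 and Psma7 (0.92 each). Their transcripts were 914 to 1916 nt long. Opposite correlations were as strong, in Tet1 (-0.93, 13986 nt), Tmem245 (-0.93, 2643 nt), Ubn2 (-0.93, 4243 nt), Lpp (-0.92, 3894 nt) and Pds5b (-0.91, 6598 nt). The part of length in these correlations was not tested.

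Other genes of the ribosome and of its control were examined from lists of known genes. The ribosomal protein genes with other names were at 516 CPM for Fau, which codes for a ubiquitin-like protein fused to eS30 and 2990 CPM for Rack1, a scaffold on the small subunit. Both were higher in Ex5, by 0.21 ± 0.03 and 0.22 ± 0.02 log2. Rpl36al, at 4.28 CPM, differed by 0.056 ± 0.060 and did not pass.

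For comparison, 27.41% of all genes were higher and 27.68% lower in Ex5, and 26.78% rose and 26.56% fell over time. Of 18 other TOP messages, mostly translation factors, 10 (55.56%) were higher and 1 (5.556%) was lower in Ex5. Over time 8 of them (44.44%) rose and 1 (5.556%) fell. The initiation factor genes Eif3f (0.24 ± 0.02 log2 higher in Ex5) and Eif3l (-0.11 ± 0.02) marked the ends in level. Eif4b rose most, by 0.15 ± 0.01 log2 per 100 min, while Pabpc1, the poly(A)-binding protein gene, fell by 0.044. Of 34 ribosome biogenesis genes, 8 (23.53%) were higher and 5 (14.71%) lower in Ex5. In the same list 9 (26.47%) rose, near the share of all genes, and 7 (20.59%) fell. In this list Ubtf, an RNA polymerase I factor, was higher in Ex5 by 0.18 ± 0.03 and Polr1c, a subunit of RNA polymerases I and III, was lower, with -0.13 ± 0.02. Of 78 mitochondrial ribosomal protein genes, 11 (14.1%) were higher and 21 (26.92%) lower in Ex5, and 12 (15.38%) rose and 10 (12.82%) fell.

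Of 16 genes that regulate TOP messages or ribosome production, 5 (31.25%) were higher and 6 (37.5%) lower in Ex5. Over time 6 of them (37.5%) rose and 2 (12.5%) fell. Mycn, a transcription factor that drives ribosome production, was higher in Ex5 (0.27 ± 0.02 log2, adjusted p = 1.35e-13), and Sesn2, an inhibitor of mTORC1, was lower (-0.33 ± 0.03, adjusted p = 7.11e-13). Other genes of the same kinds went the opposite way: Myc was lower in Ex5 (-0.18 ± 0.05, adjusted p = 0.0034) and Ddit4, another inhibitor of mTORC1, was higher (0.17 ± 0.03, adjusted p = 4.61e-07). Mtor was lower in Ex5 (-0.11 ± 0.02) and rose over time (0.12 ± 0.02 log2 per 100 min), as did Tsc1, a negative regulator of mTORC1 (0.15 ± 0.02). Ddit4 was the only gene of this list that cycled, 1.12-fold (edgeR quasi-likelihood adjusted p = 0.0354). No relation of these genes to the ribosomal protein messages was tested.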

How the data were processed

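Polyadenylated RNA of 32 libraries (16 of Ex4 and 16 of Ex5) was measured by RNA-seq with a stranded kit from 200 ng total RNA. The authors deposited raw counts of reads, 1 row per gene symbol. The submitters' processing notes name HTSeq 0.6.1, HISAT2 2.1.0, cutadapt 1.14 and bcl2fastq 2.17.1.14, with the build mm10. Which annotation and strand setting were used, and how reads with several matches were treated, is not given in the sources used here. Columns matched the labels 1 to 1, with 0 left unused.

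CPM were computed with TMM factors, and the 11772 genes reaching 1 CPM in 16 or more libraries were fitted with edgeR 4.0.16 (R 4.3.3, quasi-likelihood). The model had a level (at 285 min) and a slope for each experiment, and sine and cosine terms common to both at the period of 135 min fitted to Hes7. Slopes are per 100 min. P-values were adjusted by Benjamini-Hochberg over all 11772 genes, with a threshold of 0.05. Each time has 1 library per experiment, so errors come from deviations from the fitted curves, which may hold technical spread. Deviations used log2 CPM with a prior count of 0.5. The procedure was tested on simulated counts. Transcript lengths, GC content and overlaps come from GENCODE M21, matched by symbol for 79 of 79 members. Promoters come from RefSeq (GRCm38.p6), for 59 members.

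Members and lists were chosen with earlier results of these data known. Members were named if among the 8 largest or smallest changes past a test, the 5 highest or lowest per kilobase, the 3 nearest to the minimum level, or in the lists of axial mutants, anaemia genes, stalk proteins and paralogs. Up to 4 genes were named from the other lists. Rpl14, Rpl7a, Myc, Kdr, the genes most opposite to the members' mean and the members kept or lost in an alternative were named after their values were seen. Alternatives were other scalings, DESeq2 1.42.0, no filter, corrections for GC content and length (smooth terms with mgcv 1.9.3), other periods and time trends, each experiment alone, the time point number as a block, and each library left out. The host genes of small nucleolar RNAs listed with the TOP messages were not analysed here. Results for some members and listed genes are not reported here.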

Additional observations from a re-analysis of the deposited data

Results flagged for a closer look

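The slopes of 25 members differed between Ex4 and Ex5 by a direct test of the difference (edgeR quasi-likelihood, adjusted p under 0.05), each being more positive in Ex5. The differences, in log2 per 100 min, were 0.18 for Rpl38, 0.16 for Rps28, 0.16 for Rplp2, 0.16 for Rpl36, 0.14 for Rps21, 0.13 for Rps16 (0.135), 0.13 for Rpl22l1, 0.13 for Rps27l and 0.13 for Rpl35a. Those of Rpl10 (0.11), Rps7 (0.10), Rps27 (0.10) and Rps24 (0.085) were smaller. Most of these calls were lost after correction for transcript length or without the Ex4 library at 405 min, as given with the result. The same call was made for 20 of 78 mitochondrial ribosomal protein genes (25.64%) and for 7.03% of all genes.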

How the results depend on the processing

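The count higher in Ex5 was 70 to 74 under the other scalings, DESeq2, no filter and both corrections, and 72 to 75 with each library left out, with 2 lower in every one. Under the scalings, DESeq2, no filter and the corrections, 19.3% to 31.4% of all genes were higher. The median level difference of 0.18 was 0.152 with total counts, 0.154 with the GC content and length correction and 0.15 with length alone (added after seeing the data), and 0.16 to 0.19 with a library left out. Total counts gave 25 members rising and 1 falling, with a median trend of 0.0294, and moved the split of all genes to 22.3% higher and 35.0% lower in Ex5, and to 21.2% rising and 32.9% falling. Both corrections also gave 1 falling member, Rps27l. Ex4 alone gave 3 rising, 1 falling and a median of 0.0163 (Rps28 at -0.0063 and Rpl35a at -0.0154), and Ex5 alone a median of 0.0762. With a library left out, 37 to 66 rose (0 fell) and the median was 0.037 to 0.059, highest without the 405 min library of Ex4. For level, trend and slope difference alike, the shares of all genes with a library left out are not reported here. The member counts of those fits therefore cannot be set against them.

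More positive in Ex5 were 15 members with no filter, 7 with the GC content and length correction (2 more negative, median 0.0133, with Rps24 at -0.0089 and Rps27 at -0.00078) and 4 with length alone (1 more negative, median 0.0177). With a library left out there were 9 to 34 (0 more negative), with medians of 0.042 to 0.091. Rhythm calls were 0 except for 1 (Rpl36) with length alone and 0 to 1 with a library left out, Rpl36 without the Ex5 library at 305 min. The rhythm difference count was 0 in all. The paralog ratio differences with a library left out were -0.42 to -0.40 for Rps27l, -0.12 to -0.10 for Rpl7l1 and 0.092 to 0.13 for Rpl22l1, the last past the threshold in 8 of 32.

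Time point numbers did not pair the libraries (correlation of same-numbered libraries 0.047 to 0.545, 14 of 16 above 0.1, 2 best with their own number). With the number as a replicate block, 74 members were higher and 2 lower, with a median of 0.18.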
